A study of Mus musculus with 6 samples.

Results

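The collagen chain genes are the 44 of 25239 genes in the count table whose symbol is Col, a type number, the letter a and a chain number, such as Col1a1. They were chosen by name and not by a measured value. They fall into 11 fibrillar chains, 9 chains of basement membranes, 9 FACIT chains (fibril-associated collagens with interrupted helices) and 15 other chains, of which 6 build beaded filaments, 3 are short-chain collagens, 4 are transmembrane proteins and 2 belong to no class used here.

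The counts are from 6 bulk RNA-seq libraries of thyroid organoids grown from a clonally isolated derivative of the G4 RosaLuc line of mouse embryonic stem cells. The cells carry 2 transgenes. Doxycycline, given for 5 days in all groups, switches on the thyroid transcription factors Nkx2-1 and Pax8 (TRE-Nkx2-1-Pax8), and 4-hydroxytamoxifen (4OHT) activates the oncogenic kinase Braf V637E, made as a fusion to ERT2 (bTg-NES-BrafV637E-ERT2). The fusion is driven by the bovine thyroglobulin promoter (bTg), which is active in follicular cells, whereas bulk RNA also holds whatever other cells remained after follicle enrichment. The 3 groups of 2 libraries were all collected at day 31 and all received 8-Br-cAMP. The cAMP group had ethanol, the vehicle, in place of 4OHT, and the 4OHT group had 1 µM 4OHT for 5 days. The PD+LY group had 1 µM 4OHT and, for 3 days, 250 nM PD0325901, which blocks MEK, together with 5 µM LY204002, which blocks PI3K. The PI3K inhibitor is spelled LY204002 in the methods of the study and differently in some of its figure legends. Below, the 4OHT step is the comparison of 4OHT with cAMP, the inhibitor step that of PD+LY with 4OHT, and the whole difference that of PD+LY with cAMP. The methods of the study place 4 days of 4OHT before the inhibitors, so PD+LY and 4OHT may differ in days of 4OHT as well, and these cannot be told apart. Each library pooled at least 3 wells, and nothing in the labels says that the libraries of a group came from separate differentiations, so the p-values measure the spread between these libraries only.

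Collagens are built from 3 chains that wind around each other along repeats of glycine and any other pair of residues. Fibrillar chains form the cross-linked fibrils of connective tissue, and type IV chains form the sheet under epithelia, including the follicles of the thyroid. FACIT chains sit on fibril surfaces, type VI chains make beaded filaments beside cells, and transmembrane collagens anchor cells to the matrix. In most tissues, fibroblasts and related mesenchymal cells make most of the fibrillar collagen, while epithelial and endothelial cells also make type IV collagen.

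The glycine repeat can be read in the coding sequence of each member, here in the longest complete coding transcript of GENCODE M21. The longest unbroken run of glycine-led triplets spanned 216 to 344 triplets in the 11 fibrillar members, with a median of 338. It spanned 30 to 75 triplets in the 9 basement membrane members (median 42), 32 to 113 in the 9 FACIT members (median 57) and 23 to 87 in the 15 others (median 45). The basement membrane members had a median of 23 separate runs of at least 4 triplets, against 3 in the fibrillar members. The fibrillar class was thus also set apart by the repeat, since none of its longest runs was as short as the longest of another class. The first 90 bases of the longest run are shown for 4 members that moved most clearly or in opposite directions below, with the glycine codon that opens each triplet in capitals.
Col3a1, codons 164 to 193: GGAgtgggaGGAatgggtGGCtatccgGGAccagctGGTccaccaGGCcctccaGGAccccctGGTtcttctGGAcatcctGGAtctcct
Col5a2, codons 211 to 240: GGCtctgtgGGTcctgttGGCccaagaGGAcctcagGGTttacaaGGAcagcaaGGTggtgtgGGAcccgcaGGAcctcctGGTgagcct
Col5a3, codons 478 to 507: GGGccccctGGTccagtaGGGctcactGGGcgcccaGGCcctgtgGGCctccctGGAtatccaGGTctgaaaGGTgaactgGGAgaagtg
Col9a1, codons 418 to 447: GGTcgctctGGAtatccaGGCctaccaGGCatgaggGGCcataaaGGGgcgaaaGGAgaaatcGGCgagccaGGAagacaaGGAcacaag

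In the basement membrane members the runs break off often. The 90 bases around the end of the longest run are shown for Col4a1, the most abundant member, with every glycine codon in capitals. The capitals are evenly spaced on the left and unevenly on the right.
Col4a1, codons 148 to 177: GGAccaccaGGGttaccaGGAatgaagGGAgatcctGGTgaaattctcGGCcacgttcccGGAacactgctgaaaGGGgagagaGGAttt

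Promoter windows, from 250 bases before to 50 bases after the transcription start, were found in the RefSeq table (GRCm38.p6) for 35 of the 44 members, as 38 windows. Col1a1, Col2a1, Col5a2, Col4a3, Col12a1, Col14a1, Col22a1, Col26a1 and Col9a3 were not among them. The windows were searched on both strands for fixed letters, which describe a window and do not show that a factor binds there. The GC box letters GGGCGG were in 60.5% of the member windows and in 35.7% of all 32851 windows. CCAAT was in 34.2% against 37.4%, TATAAA in 13.2% against 13.6%, the E-box CANNTG in 52.6% against 72.3%, the AP-1 letters TGANTCA in 2.63% against 7.81%, and the ETS letters CCGGAAG in 0% against 8.86%. The median GC content was 59.9% in member windows and 52.7% in all windows.

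The windows of Col1a2, Col3a1 and Col5a1, which rose in both steps of the experiment, differed in base composition. They are shown on their own strand, with GC box, CCAAT and TATAAA matches of either strand in capitals. Their GC content was 61%, 37.7% and 75%, the last 2 being the lowest and the highest of all member windows, and the TATAAA letters were in that of Col3a1 only of these 3.
Col1a2, chr6:4505368-4505667, plus strand: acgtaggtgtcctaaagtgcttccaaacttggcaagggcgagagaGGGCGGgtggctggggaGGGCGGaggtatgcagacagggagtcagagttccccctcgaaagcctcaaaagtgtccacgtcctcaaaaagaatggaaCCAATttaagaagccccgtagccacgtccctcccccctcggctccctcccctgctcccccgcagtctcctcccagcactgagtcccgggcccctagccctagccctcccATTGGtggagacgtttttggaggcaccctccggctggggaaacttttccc
Col3a1, chr1:45311288-45311587, plus strand: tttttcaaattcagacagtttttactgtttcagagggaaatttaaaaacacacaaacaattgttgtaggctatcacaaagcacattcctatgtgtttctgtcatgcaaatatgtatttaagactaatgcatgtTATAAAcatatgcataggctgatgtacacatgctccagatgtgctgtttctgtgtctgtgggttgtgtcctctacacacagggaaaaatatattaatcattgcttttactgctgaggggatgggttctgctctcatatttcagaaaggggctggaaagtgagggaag
Col5a1, chr2:27886175-27886474, plus strand: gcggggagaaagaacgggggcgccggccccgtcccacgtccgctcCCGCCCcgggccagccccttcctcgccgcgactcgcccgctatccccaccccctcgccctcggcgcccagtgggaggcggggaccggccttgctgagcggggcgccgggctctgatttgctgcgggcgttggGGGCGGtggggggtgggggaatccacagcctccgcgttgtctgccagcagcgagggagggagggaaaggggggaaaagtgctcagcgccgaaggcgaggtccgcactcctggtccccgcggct

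Col4a1 and Col4a2 lie head to head on chromosome 8, with starts 21 bases apart on opposite strands, and their windows share 78 bases. They are shown because both genes rose in the inhibitor step and because the shared stretch holds 1 GC box match.
Col4a1, chr8:11312777-11313076, minus strand: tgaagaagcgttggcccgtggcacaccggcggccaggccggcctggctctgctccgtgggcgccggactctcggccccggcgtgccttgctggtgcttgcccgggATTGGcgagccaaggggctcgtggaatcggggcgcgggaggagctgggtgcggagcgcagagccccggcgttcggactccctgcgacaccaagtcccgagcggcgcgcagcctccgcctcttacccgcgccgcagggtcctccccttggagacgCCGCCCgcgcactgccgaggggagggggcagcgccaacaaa
Col4a2, chr8:11312555-11312854, plus strand: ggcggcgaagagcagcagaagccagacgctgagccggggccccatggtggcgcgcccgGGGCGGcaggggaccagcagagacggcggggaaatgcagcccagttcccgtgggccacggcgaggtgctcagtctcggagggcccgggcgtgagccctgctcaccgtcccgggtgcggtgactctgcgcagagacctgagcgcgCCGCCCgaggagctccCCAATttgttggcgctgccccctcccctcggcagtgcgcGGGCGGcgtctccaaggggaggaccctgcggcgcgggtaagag

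The window of Col6a1 is shown because it was the only member window with the AP-1 letters, here in capitals.
Col6a1, chr10:76725995-76726294, minus strand: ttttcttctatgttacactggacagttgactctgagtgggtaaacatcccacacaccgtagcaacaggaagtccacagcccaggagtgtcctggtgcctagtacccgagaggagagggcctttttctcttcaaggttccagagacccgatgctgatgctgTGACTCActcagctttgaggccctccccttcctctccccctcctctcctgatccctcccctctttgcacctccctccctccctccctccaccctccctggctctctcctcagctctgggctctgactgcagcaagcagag

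The libraries held 14898409 to 20637959 counts. Levels are given as CPM, the usual counts per library total, scaled by TMM, and library 1 and library 2 of a group are named in that order. Of the 44 members 41 had at least 3 counts in every library, the floor used here, and 42 had enough counts to be tested. A member is called up or down at a Benjamini-Hochberg adjusted p under 0.05 in edgeR's quasi-likelihood test, fitted to all 6 libraries and adjusted over all 15256 tested genes. Fold changes (FC) are log2 with a standard error (SE) derived from that test, as the absolute log2 FC over the square root of its F statistic. All 8 thyroid follicular markers checked were above the floor in every library, with Tg (thyroglobulin) between 514 and 1869 CPM, and 11 of 12 mesenchymal markers other than collagens were too. All 8 markers of pluripotent cells were above it as well. They summed to 3350 to 3454 CPM in cAMP, 3787 to 3981 in 4OHT and 3808 to 4121 in PD+LY. The 8 neural progenitor markers summed to 365 to 386 CPM in cAMP, 325 to 334 in 4OHT and 414 to 431 in PD+LY. In such bulk samples a change in the number of cells of a type and a change in RNA per cell cannot be told apart.

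Collagen genes took a small share of all counts, higher in 4OHT and again in PD+LY. Their share was 0.573% ± 0.0222 (SD, n = 2) for cAMP, 0.668% ± 0.0427 for 4OHT and 1.01% ± 0.0887 for PD+LY. Most of this rise was in the fibrillar members, with 0.114 and 0.129% of the counts in the cAMP libraries, 0.232 and 0.241% in 4OHT, and 0.495 and 0.424% in PD+LY. These groups did not overlap, and the group mean grew 1.95 times with 4OHT and a further 1.94 times with PD+LY. The basement membrane members held 0.423 and 0.376% in cAMP, 0.347 and 0.392% in 4OHT, and 0.524 and 0.481% in PD+LY, so that cAMP and 4OHT overlapped and both PD+LY libraries were above the others. The FACIT members stayed between 0.0262 and 0.035% and the other chains between 0.0177 and 0.0301% in all 6 libraries. With 2 libraries against 2, a two-sided exact permutation test cannot go below p = 0.3333, which is what each fibrillar comparison gave.

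**Figure D1:**
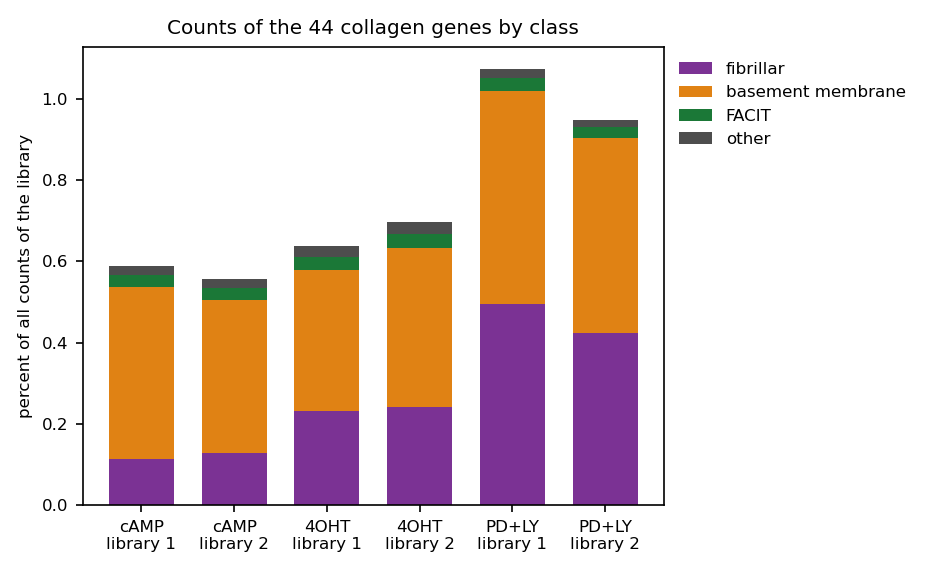
Bars show the percent of all counts of each of the 6 libraries that fell on the 44 collagen genes, stacked by class. The fibrillar part grew from about 0.12% in cAMP to 0.46% in PD+LY, while the basement membrane part was the largest in every library.

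Few genes made up most of this signal. In cAMP Col4a1 alone gave 38.9% of the collagen counts, Col4a2 17.9% and Col18a1 11.2%, so the basement membrane led. In PD+LY Col4a1 gave 27.3%, Col4a2 14.3%, and Col1a1, Col3a1 and Col1a2 gave 13.3, 13.2 and 12.9%. Per kilobase of exon the order in cAMP was Col4a1 (301 CPM per kb ± 35.6), Col4a2 (156 ± 18.3), Col18a1 (92 ± 4.72) and Col1a1 (58.8 ± 8.69), and none of these neighbours overlapped. In PD+LY Col4a1 was still first at 369 ± 34.6 CPM per kb, and Col4a2 (219 ± 16.1) and Col1a1 (205 ± 17.9) followed within their spread of each other. This order rests on all exon bases of a gene. Per kilobase of the longest transcript, Col1a2 (244 CPM per kb) and Col3a1 (240) came before Col1a1 (227) and Col4a2 (225) in PD+LY.

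In the 4OHT step, 12 of the 42 tested members rose and 2 fell, or 28.6% and 4.76%, where 4.04% and 4.35% of all tested genes did. The median log2 FC was 0.25 over the tested members and -0.002 over all tested genes. Past a 2-fold change there were 3 members up and 0 down, with 1.17% and 1.51% of all genes. The rises of Col1a1, Col1a2, Col3a1, Col5a2 and Col5a3 alone remained called whichever of the 4 libraries compared was left out. Such a fit leaves 1 library in a group, and the share of all tested genes that lose a call in it was not worked out. Among the lost calls, the log2 FC moved little for Col20a1 (0.99 to 1.00, against 1.00 with all 6 libraries). It moved more for Col16a1 (0.46 to 0.79, against 0.64). In the inhibitor step, 10 members rose and 12 fell (23.8% and 28.6%), beside 10.7% and 12.1% of all genes, and the median was -0.27 against 0.008. There 5 members rose and 7 fell at least 2-fold, with 2.35% and 4.9% of all genes. In the whole difference, 9 members were higher and 7 lower (21.4% and 16.7%), beside 12.1% and 13.7% of all genes, with a median of 0.20 against 0.005. At least 2-fold, 7 were higher and 5 lower, with 3% and 6.24% of all genes. The comparisons share libraries and are not independent of each other. The shares of all genes given here are those to set beside the counts of classes, markers and gene lists below.

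**Figure D2:**
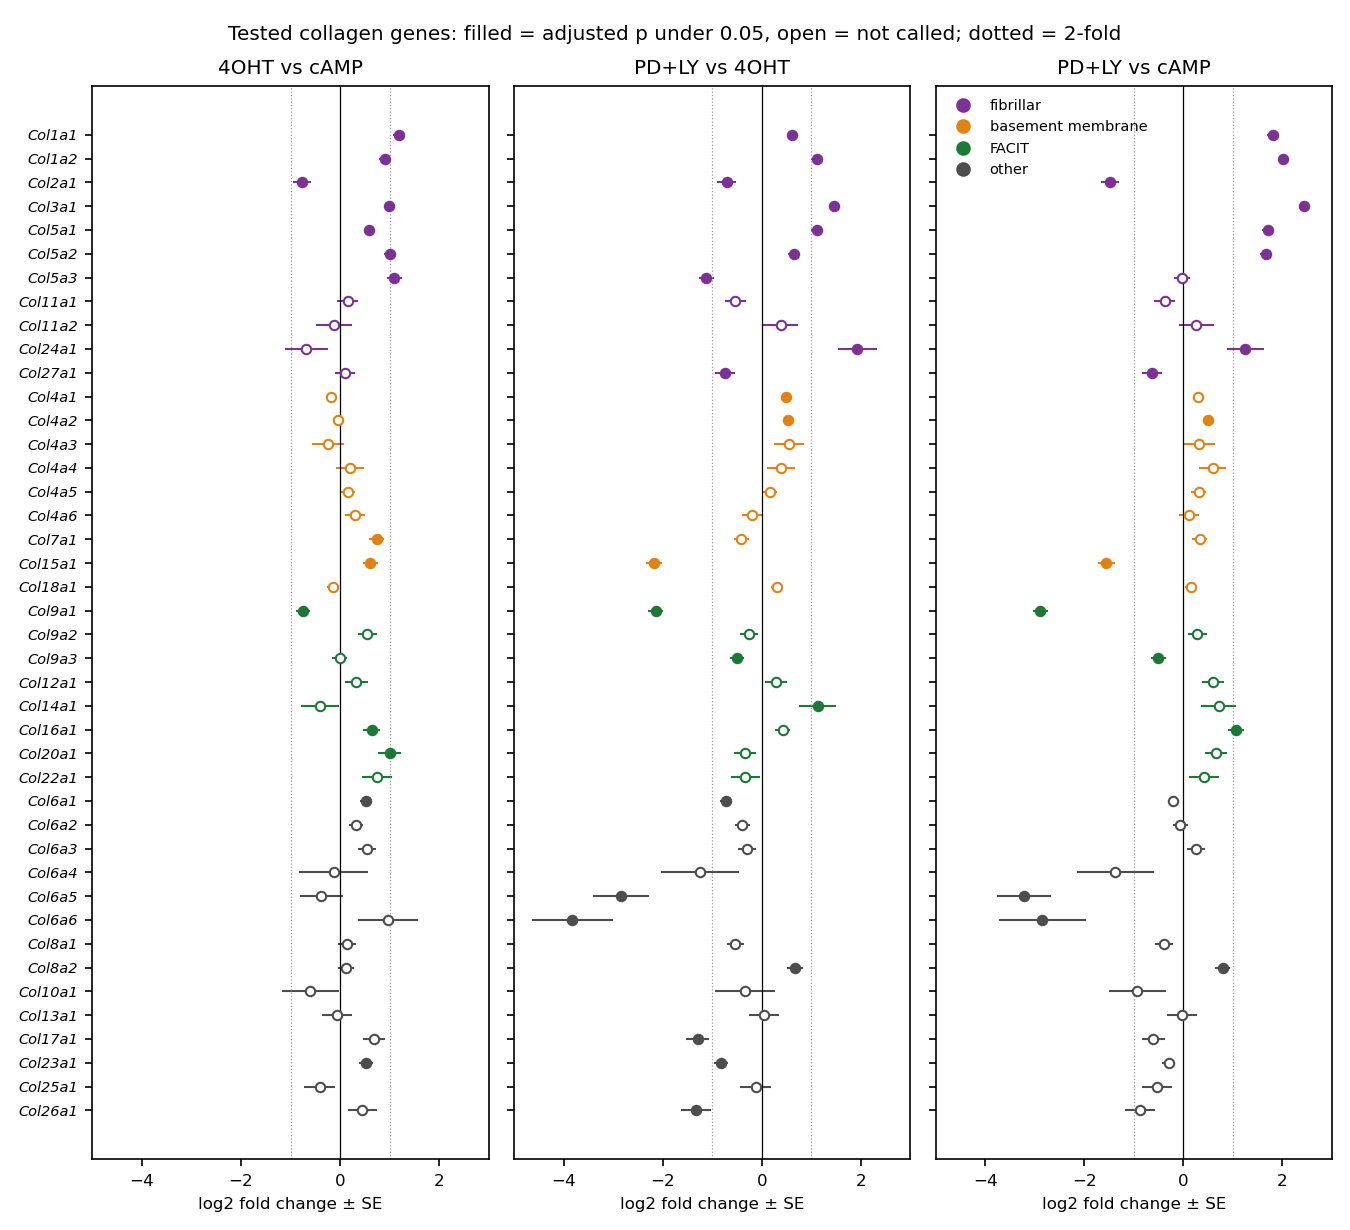
The log2 fold change of each of the 42 tested members, with its SE as a bar, is drawn for the 3 comparisons and coloured by class, filled where the adjusted p is under 0.05. Types I, III and V except Col5a3 lie to the right in all 3 panels, and Col9a1 and Col2a1 lie to the left in all 3.

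Among fibrillar chains the main fibril formers rose at each step. Of 11 fibrillar members 6 rose and 1 fell in the 4OHT step, and 6 rose and 3 fell in the inhibitor step. In the whole difference 6 were higher and 2 lower, and the medians of the 3 comparisons were 0.59, 0.62 and 1.25. The share up was 54.5% in each comparison, beside 4.04%, 10.7% and 12.1% of all tested genes. The share down was 9.09%, 27.3% and 18.2%, beside 4.35%, 12.1% and 13.7%. Col1a1, Col1a2, Col3a1, Col5a1 and Col5a2 were called up in all 3 comparisons.

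Col1a1 (chr11:94936224-94953042, plus strand, build GRCm38 with GENCODE M21 as for all genes below) encodes the chain present in 2 copies in type I collagen, the main collagen of bone, skin and scar. It had 346 and 426 CPM in cAMP, 870 and 881 in 4OHT, and 1428 and 1262 in PD+LY. The 3 groups did not overlap. The log2 FC was 1.18 (SE 0.11, adjusted p = 9.58e-05) in the 4OHT step, 0.62 (SE 0.11, adjusted p = 0.00161) in the inhibitor step and 1.80 (SE 0.11, adjusted p = 7.2e-07) in the whole difference.

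Col1a2 (chr6:4504814-4541544, plus strand), the other chain of type I collagen, had 308 and 340 CPM in cAMP, 600 and 609 in 4OHT, and 1447 and 1166 in PD+LY. It rose by 0.90 with 4OHT (SE 0.11, adjusted p = 0.000494) and by a further 1.11 in PD+LY (SE 0.11, adjusted p = 4.12e-05), so its larger step was the second, while that of Col1a1 was the first, and the whole difference was 2.01 (SE 0.11, adjusted p = 3.45e-07). The difference between the steps was not tested.

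Col3a1 (chr1:45311538-45349706, plus strand) encodes the only chain of type III collagen, found beside type I in stretchable tissues. It had 242 and 250 CPM in cAMP, 450 and 523 in 4OHT, and 1387 and 1285 in PD+LY. The log2 FC was 0.98 (SE 0.09, adjusted p = 0.000116), 1.46 (SE 0.09, adjusted p = 2.92e-06) and, for PD+LY against cAMP, 2.44 (SE 0.10, adjusted p = 3.85e-08), a 5.43-fold difference and the largest rise of any member. A microRNA gene annotated on the same strand, Gm47302, covers 1.44% of its exon bases and has no row of its own.

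Type V collagen starts fibrils and sets their width. Col5a1 (chr2:27886425-28039514, plus strand) had 71.6 and 79.4 CPM in cAMP, 109 and 118 in 4OHT, and 268 and 223 in PD+LY. It rose by 0.59 (SE 0.11, adjusted p = 0.00863) and then by 1.11 (SE 0.11, adjusted p = 5.55e-05), and the first of these calls was lost without cAMP library 1 (adjusted p = 0.0766), 4OHT library 1 (0.0649) or 4OHT library 2 (0.108). Col5a2 (chr1:45374321-45503282, minus strand) had 89.6 and 100 CPM, 195 and 187 CPM, and 334 and 265 CPM in the same order, with a log2 FC of 1.01 (SE 0.12, adjusted p = 0.00045) and then 0.65 (SE 0.11, adjusted p = 0.00206). The whole difference was 1.70 for Col5a1 (SE 0.11, adjusted p = 1.46e-06) and 1.66 for Col5a2 (SE 0.12, adjusted p = 2.64e-06).

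Col5a3 (chr9:20770050-20815067, minus strand), the less widespread chain of type V collagen, went up with 4OHT and back down in PD+LY. It had 12.4 and 11.3 CPM in cAMP, 25.1 and 25.7 in 4OHT, and 12.4 and 10.9 in PD+LY. Both 4OHT libraries stood well above the other 4, whose groups overlapped. The log2 FC was 1.09 (SE 0.15, adjusted p = 0.00139), then -1.12 (SE 0.15, adjusted p = 0.000397), and -0.03 in PD+LY against cAMP (SE 0.16, adjusted p = 0.914).

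**Figure D3:**
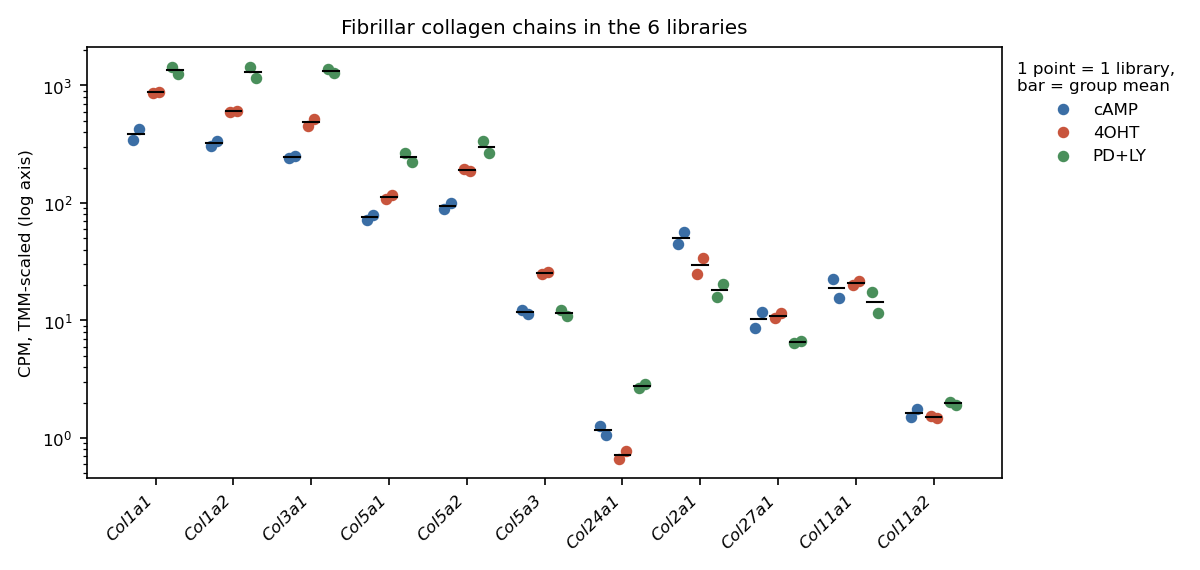
The level of each of the 11 fibrillar members is drawn in CPM on a log axis, with a point for each library and a bar for the group mean. Col1a1, Col1a2, Col3a1, Col5a1 and Col5a2 step up from cAMP to 4OHT to PD+LY, Col5a3 is high in 4OHT alone, and Col2a1 steps down.

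Of the remaining fibrillar chains, Col2a1 (chr15:97975602-98004695, minus strand), the chain of cartilage fibrils, went the other way. It had 44.8 and 56.2 CPM in cAMP, 24.9 and 34.3 in 4OHT, and 15.7 and 20.5 in PD+LY, with no overlap between groups. It fell by 0.77 on the log2 scale with 4OHT (SE 0.18, adjusted p = 0.023), by 0.71 in the inhibitor step (SE 0.19, adjusted p = 0.0175) and by 1.48 in the whole difference (SE 0.19, adjusted p = 0.000149). The first call was lost without cAMP library 2 (adjusted p = 0.136) or 4OHT library 1 (0.255), and the second without PD+LY library 1 (0.0741) or without 4OHT library 2, where the log2 FC was -0.45 (adjusted p = 0.229).

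Col24a1 and Col27a1 encode less abundant fibrillar chains with a shorter main run of triplets, 216 and 217, where the other fibrillar members had at least 337. Col24a1 (chr3:145292472-145552011, plus strand) had 20 and 22 counts in cAMP, 10 and 14 in 4OHT, and 52 and 59 in PD+LY, or at most 2.87 CPM. It was higher in PD+LY than in 4OHT by 1.93 (SE 0.40, adjusted p = 0.0052) and than in cAMP by 1.25 (SE 0.37, adjusted p = 0.027), a call that DESeq2 did not make (0.0868) and that was lost without any single library of these groups (0.0592 to 0.156). Col27a1 (chr4:63214004-63334991, plus strand) had 8.61 and 11.9 CPM in cAMP, 10.4 and 11.6 in 4OHT, and 6.47 and 6.71 in PD+LY, the lowest. It fell by 0.74 against 4OHT (SE 0.20, adjusted p = 0.0227), a call lost without 4OHT library 1 (0.0742), 4OHT library 2 (0.17) or PD+LY library 1 (0.0526). Its log2 FC against cAMP was -0.64 (SE 0.20, adjusted p = 0.0368), a call lost on leaving out any library other than cAMP library 1, with -0.38 without cAMP library 2 (0.349) and 0.0632 to 0.0728 in the other fits, and not made by DESeq2 (0.0565) or on the 2 groups alone (0.0734).

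Markers of cells that make fibrillar collagen did not move as one with these chains. Over the 12 mesenchymal markers other than collagens, 1 rose with 4OHT, 6 fell in the inhibitor step (median -0.52), and 1 was higher and 6 lower in the whole difference, with a summed level of 610 to 633 CPM in cAMP, 657 to 721 in 4OHT and 496 to 617 in PD+LY. Decorin (Dcn), a proteoglycan that binds fibrils, had 50 and 40.4 CPM in cAMP, 79.3 and 82.5 in 4OHT, and 123 and 90.5 in PD+LY, whereas the receptor Pdgfrb fell from 28.1 and 33.8 CPM in 4OHT to 14.5 and 11.3 in PD+LY. The 8 smooth muscle and pericyte markers summed to 249 to 307 CPM in cAMP, 343 to 357 in 4OHT and 483 to 624 in PD+LY, and 6 of them rose and 1 fell in the inhibitor step, with 5 higher in the whole difference. Acta2, smooth muscle actin, had 89.4 and 115 CPM in cAMP, 128 and 132 in 4OHT, and 254 and 194 in PD+LY, the same order of groups as Col1a1. The part of these cells in the collagen levels was not tested.

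The basement membrane chains moved less. Of the 9 members 2 rose in the 4OHT step, and 2 rose and 1 fell in the inhibitor step. In the whole difference 1 was higher and 1 lower, and the medians of the 3 comparisons were 0.16, 0.30 and 0.31. The share up was 22.2%, 22.2% and 11.1%, beside 4.04%, 10.7% and 12.1% of all tested genes. The share down was 0%, 11.1% and 11.1%, beside 4.35%, 12.1% and 13.7%. The 6 type IV chains had a log2 FC of -0.24 to 0.30 in the 4OHT step and of -0.19 to 0.55 in the inhibitor step.

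Col4a1 (chr8:11198423-11312826, minus strand) and Col4a2 (chr8:11312805-11449287, plus strand) encode the chains of the common type IV network. Col4a1 had 2433 and 2057 CPM in cAMP, 1850 and 2109 in 4OHT, and 2939 and 2575 in PD+LY. Col4a2 had 1120 and 948 CPM, 926 and 1076 CPM, and 1523 and 1373 CPM in the same order. For both genes cAMP and 4OHT overlapped and PD+LY was highest. In the inhibitor step the log2 FC was 0.48 for Col4a1 (SE 0.10, adjusted p = 0.00658) and 0.53 for Col4a2 (SE 0.10, adjusted p = 0.00397), and both calls were lost without 4OHT library 1 (0.0838 and 0.0632). Against cAMP it was 0.30 for Col4a1 (SE 0.10, adjusted p = 0.0533) and 0.49 for Col4a2 (SE 0.10, adjusted p = 0.00544), the latter lost without cAMP library 2 (0.0536). The 22 exon bases that the neighbours share are 0.29% and 0.33% of their exons, and counting without strand cannot place reads there. Endothelial cells and the parietal endoderm of the embryo make much type IV collagen. The 8 endothelial markers summed to 167 to 191 CPM over all libraries, of which Pecam1 gave 128 to 171 CPM. Of the 7 tested, Pecam1 rose by 0.36 in the 4OHT step (adjusted p = 0.0271), while Cdh5 (-1.47, 0.00381), Kdr (-2.31, 0.000688) and Tie1 (-3.46, 0.00249) fell, and the median was -0.72. In the inhibitor step 1 of them, Esam, fell, and in the whole difference 4 were lower. The 8 parietal endoderm markers summed to 1542 to 1644 CPM in cAMP, 1341 to 1520 in 4OHT and 1255 to 1599 in PD+LY, most of it Lamb1 (a mean of 1142 CPM). Of these 8, Plat rose in the 4OHT step (0.65, adjusted p = 0.00556) and Sox7 and Fst fell (-0.78, 0.00537, and -1.02, 0.00287). Plat fell in the inhibitor step (-0.84, 0.000426), and Sox17, Sox7 and Fst were lower in the whole difference. The 8 thyroid follicular markers summed to 1098 to 1647 CPM in cAMP, 562 to 753 in 4OHT and 986 to 1984 in PD+LY, most of it Tg, and 3 of them fell in the 4OHT step and 6 rose in the inhibitor step. In the whole difference 3 of these markers were higher, with a median of 0.2. The part of these cells in the type IV levels was not tested.

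The other type IV chains, Col4a3 to Col4a6, make the networks of the kidney filter and of other specialised membranes. None of the 4 was called, and their levels ran from 2.83 to 43.1 CPM. Col4a3 shares 5.65% of its exon bases with a transcript on the opposite strand.

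Col15a1 (chr4:47208161-47313167, plus strand) encodes a chain that links basement membranes to the fibrils beneath and ends in an endostatin-like domain. It had 25.5 and 21.6 CPM in cAMP, 35.3 and 36.6 in 4OHT, and 9.01 and 6.95 in PD+LY. It rose with 4OHT by 0.61 (SE 0.15, adjusted p = 0.0297) and fell in PD+LY by 2.17 (SE 0.16, adjusted p = 8.91e-06), a 4.5-fold difference, to end below cAMP by 1.56 on the log2 scale (log2 FC -1.56, SE 0.17, adjusted p = 4.96e-05). The rise was lost on leaving out any of the 4 libraries compared (0.0626 to 0.207), and the fall was called in each such fit. Its close relative Col18a1, the endostatin precursor, was not called and stayed between 553 and 798 CPM.

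Col7a1 (chr9:108953586-108984875, plus strand), the chain of the fibrils that anchor epidermis, had 14.1 and 13.1 CPM in cAMP, 20.6 and 24.6 in 4OHT, and 16.5 and 17.5 in PD+LY. It rose by 0.74 with 4OHT (SE 0.15, adjusted p = 0.0127), lost on leaving out any of the 4 libraries (0.0524 to 0.164). In the inhibitor step the log2 FC was -0.41 (SE 0.15, adjusted p = 0.0672).

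Of the 8 tested FACIT members, 2 rose and 1 fell in the 4OHT step, and 1 rose and 2 fell in the inhibitor step. In the whole difference 1 was higher and 2 lower, and the medians of the 3 comparisons were 0.44, -0.30 and 0.51. The share up was 25%, 12.5% and 12.5%, beside 4.04%, 10.7% and 12.1% of all tested genes. The share down was 12.5%, 25% and 25%, beside 4.35%, 12.1% and 13.7%. The steepest change was in type IX collagen, which decorates type II fibrils in cartilage and also occurs in the eye.

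Col9a1 (chr1:24177610-24252684, plus strand) had 80.2 and 72.1 CPM in cAMP, 41.1 and 49.3 in 4OHT, and 11.4 and 9.19 in PD+LY. The groups did not overlap at either step. It fell by 0.75 with 4OHT (SE 0.14, adjusted p = 0.007) and by 2.14 in the inhibitor step (SE 0.15, adjusted p = 5.67e-06), which left it 7.39-fold below cAMP (log2 FC -2.89, SE 0.15, adjusted p = 2.88e-07). The first fall was lost without cAMP library 1 (0.0507) or 4OHT library 1 (0.133). Its partners changed less. Col9a3 (chr2:180597790-180622189, plus strand) had 58.2 and 70.8 CPM in cAMP, 54.7 and 73.7 in 4OHT, and 43.5 and 47.5 in PD+LY. It fell by 0.50 against 4OHT (SE 0.15, adjusted p = 0.033), which became -0.26 without 4OHT library 2 (0.389) and was also lost without PD+LY library 1 (0.0872), and it fell by 0.51 against cAMP (SE 0.15, adjusted p = 0.0272), lost without cAMP library 2 (0.221) or PD+LY library 1 (0.0692). Tcfl5 overlaps 6.07% of its exon bases on the opposite strand. Col9a2 was not called and had 43.9 to 79.6 CPM.

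Cartilage markers were low. The 9 of them summed to 36.5 to 40.3 CPM in cAMP, 40.3 to 49.7 in 4OHT and 26.5 to 28.4 in PD+LY, less than Col9a1 alone in cAMP, and Snorc had no count in any library. In the inhibitor step 2 of them fell, Sox9 and Matn3. In the 4OHT step none of the 8 tested was called. Their log2 FC there ran from -1.45 (Matn1) to 1.20 (Chad), with a median of 0.20. In the whole difference 3 of these markers were lower. Their part in the fall of type II and type IX chains was not tested.

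Col16a1 (chr4:130047840-130099283, plus strand), a chain found near fibrils and basement membranes, had 10.7 and 12.8 CPM in cAMP, 16.1 and 20.3 in 4OHT, and 23.9 and 25.1 in PD+LY. The groups had the same order as for type I. Unlike Col1a1 and Col1a2, Col16a1 was not called in the inhibitor step (log2 FC 0.42, SE 0.16, adjusted p = 0.0766). It rose by 0.64 with 4OHT (SE 0.17, adjusted p = 0.0368), lost without any of the 4 libraries (0.0631 to 0.332), and was 1.06 higher in PD+LY than in cAMP (SE 0.16, adjusted p = 0.000656). Col20a1 (chr2:180986535-181018363, plus strand) had 3.71 and 3.65 CPM in cAMP, 7.34 and 7.35 in 4OHT, and 4.99 and 6.61 in PD+LY, a log2 FC of 1.00 with 4OHT (SE 0.23, adjusted p = 0.0232) that was lost without any of the 4 libraries (0.0966 to 0.144). Col14a1 (chr15:55307750-55520803, plus strand), which binds fibril surfaces, had 1.82 and 2.58 CPM in cAMP, 1.93 and 1.43 in 4OHT, and 4.53 and 2.77 in PD+LY. Its rise of 1.13 in the inhibitor step (SE 0.37, adjusted p = 0.0463) became 0.73 without PD+LY library 1 (0.258), was lost without 4OHT library 1 (0.0988) or 2 (0.265) and was not called by DESeq2 (0.0784).

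The other chains were called down more often than up in the inhibitor step. Of the 14 tested, 2 rose in the 4OHT step, 1 rose and 6 fell in the inhibitor step, and 1 was higher and 2 lower in the whole difference. The share up was 14.3%, 7.14% and 7.14%, beside 4.04%, 10.7% and 12.1% of all tested genes. The share down was 0%, 42.9% and 14.3%, beside 4.35%, 12.1% and 13.7%. In the inhibitor step 12 of the 14 had a negative log2 FC, with a median of -0.63.

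Type VI collagen makes beaded filaments from the chains of Col6a1, Col6a2 and one of the longer chains of Col6a3 to Col6a6. Col6a1 (chr10:76708792-76726168, minus strand) had 76.6 and 75.9 CPM in cAMP, 104 and 115 in 4OHT, and 72.4 and 60.2 in PD+LY. It rose by 0.52 (SE 0.11, adjusted p = 0.016), lost without any of the 4 libraries (0.0794 to 0.194), and fell by 0.73 in PD+LY (SE 0.11, adjusted p = 0.00099). Col6a2 had 47.1 and 50.9 CPM in 4OHT and 31.8 to 43.3 in the other libraries, and Col6a3 had 33.7 and 29.1 CPM in 4OHT and 20.1 to 30.9 elsewhere. Neither was called in a comparison.

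Col6a5 and Col6a6, neighbours on chromosome 9, were near the floor in PD+LY. Col6a5 (chr9:105856078-105960643, minus strand) had 49 and 35 counts in cAMP, 22 and 39 in 4OHT, and 4 and 6 in PD+LY. It fell by 2.84 against 4OHT (SE 0.56, adjusted p = 0.00406), lost without 4OHT library 2 (0.0509), and by 3.22 against cAMP (SE 0.55, adjusted p = 0.00123). Col6a6 (chr9:105687809-105828160, minus strand) had 9 and 19 counts in cAMP, 18 and 32 in 4OHT, and 0 and 4 in PD+LY. Its log2 FC was -3.82 against 4OHT (SE 0.82, adjusted p = 0.00643) and -2.85 against cAMP (SE 0.88, adjusted p = 0.0326), values that depend on the few counts in PD+LY, since they became -7.74 and -6.77 without PD+LY library 2. The call against 4OHT was lost without 4OHT library 2 (0.0719). The call against cAMP was lost on leaving out any library other than cAMP library 1 and PD+LY library 2 (0.0554 to 0.178), and on the 2 groups alone (0.0517).

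The transmembrane chains Col17a1 and Col23a1 were highest in 4OHT. Col17a1 (chr19:47646344-47692094, minus strand), part of the hemidesmosomes that fix epithelial cells to the basement membrane, had 6.29 and 5.94 CPM in cAMP, 8.27 and 11.3 in 4OHT, and 4.33 and 3.69 in PD+LY. It was not called with 4OHT (0.68, SE 0.22, adjusted p = 0.082) and fell by 1.29 in the inhibitor step (SE 0.23, adjusted p = 0.00214). Col23a1 (chr11:51289920-51583918, plus strand) had 18.2 and 18.7 CPM in cAMP, 24.3 and 28.5 in 4OHT, and 15.2 and 14.7 in PD+LY. It rose by 0.52 (SE 0.14, adjusted p = 0.0437), lost without any of the 4 libraries (0.129 to 0.352), and fell by 0.82 (SE 0.14, adjusted p = 0.00195). The 8 epithelial markers summed to 1078 to 1157 CPM in cAMP, 767 to 864 in 4OHT and 745 to 784 in PD+LY. Of these markers 4 fell in the 4OHT step, and 1 rose and 6 fell in the inhibitor step. In the whole difference 7 of them were lower, with a median of -1.2. Their part in these levels was not tested.

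Col26a1 (chr5:136741759-136883209, minus strand), a short chain in none of the classes, had 4.34 and 5.36 CPM in cAMP, 5.07 and 8.17 in 4OHT, and 3.11 and 2.24 in PD+LY. It fell by 1.32 in the inhibitor step (SE 0.30, adjusted p = 0.00867), and the call was lost without 4OHT library 2 (0.142). The short-chain collagen Col8a2 (chr4:126286793-126314330, plus strand), found in the membrane of the cornea and in vessel walls, was the only one of these chains that rose in the inhibitor step. It had 12.1 and 11.5 CPM in cAMP, 14 and 11.7 in 4OHT, and 21.3 and 19.6 in PD+LY, with a log2 FC of 0.67 against 4OHT (SE 0.16, adjusted p = 0.0102), lost without 4OHT library 2 (0.14), and 0.79 against cAMP (SE 0.16, adjusted p = 0.0035).

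**Figure D4:**
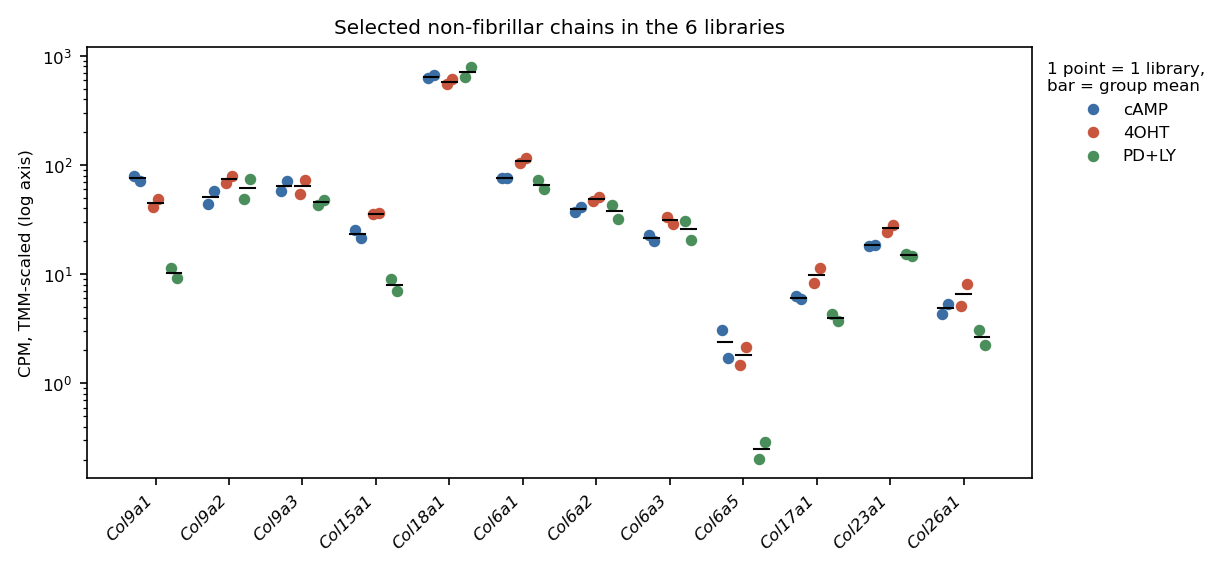
The level of 12 non-fibrillar members is drawn in CPM on a log axis, with a point for each library and a bar for the group mean. Col9a1 steps down to 9.19 CPM in a PD+LY library while Col9a2 does not, and Col15a1, Col6a1, Col17a1 and Col23a1 are highest in 4OHT and lowest in PD+LY.

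Of the 42 tested members 25 were called in a comparison and 17 in none. The latter were Col11a1, Col11a2, Col4a3 to Col4a6, Col18a1, Col9a2, Col12a1, Col22a1, Col6a2, Col6a3, Col6a4, Col8a1, Col10a1, Col13a1 and Col25a1. Their log2 FC ran from -0.60 (Col10a1) to 0.75 (Col22a1) in the 4OHT step, from -1.24 (Col6a4) to 0.55 (Col4a3) in the inhibitor step and from -1.37 (Col6a4) to 0.60 (Col12a1) in the whole difference. Exons of Col10a1 and Nt5dc1 overlap on opposite strands over 18 bases. Col19a1, with 0 to 6 counts in a library, and Col28a1, with 0 to 3, were not tested.

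Chains that assemble together did not always keep their ratio, given here as the ratio of CPM per kilobase of exon in each library. The length used sets the size of a ratio but not its change between groups. Col1a1 to Col1a2 was 2.13 and 2.37 in cAMP, 2.75 and 2.74 in 4OHT, and 1.87 and 2.05 in PD+LY. Here all exon bases were 6563 for Col1a1 and 12426 for Col1a2, whose longest transcripts have 5930 and 5348. Per kilobase of the longest transcript, Col1a1 and Col1a2 had 65.1 and 60.5 CPM in cAMP, 148 and 113 in 4OHT, and 227 and 244 in PD+LY. Col4a1 to Col4a2 was 1.93 and 1.92, 1.77 and 1.74, and 1.71 and 1.66, a narrow range for a pair of abundant genes. Col5a1 to Col5a2 was 0.902 and 0.894 in cAMP, 0.632 and 0.712 in 4OHT, and 0.909 and 0.948 in PD+LY, lower in 4OHT only.

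Larger shifts were seen in types VIII and IX. Col8a1 to Col8a2 was 1.04 and 1.01 in cAMP, 0.895 and 1.2 in 4OHT, and 0.52 and 0.374 in PD+LY. Col9a1 to Col9a2 was 1.11 and 0.766 in cAMP, 0.365 and 0.378 in 4OHT, and 0.143 and 0.0749 in PD+LY, and these groups did not overlap. Of ratios chosen after the levels were seen, Col5a3 to Col5a1 went from a mean of 0.197 in cAMP to 0.279 in 4OHT and 0.0593 in PD+LY, Col15a1 to Col18a1 from 0.0405 to 0.0685 and 0.0127, and Col3a1 to Col1a1 from 0.43 to 0.371 and 0.665. No test was made of the ratios, whose exact permutation p could not go below 0.3333.

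**Figure D5:**
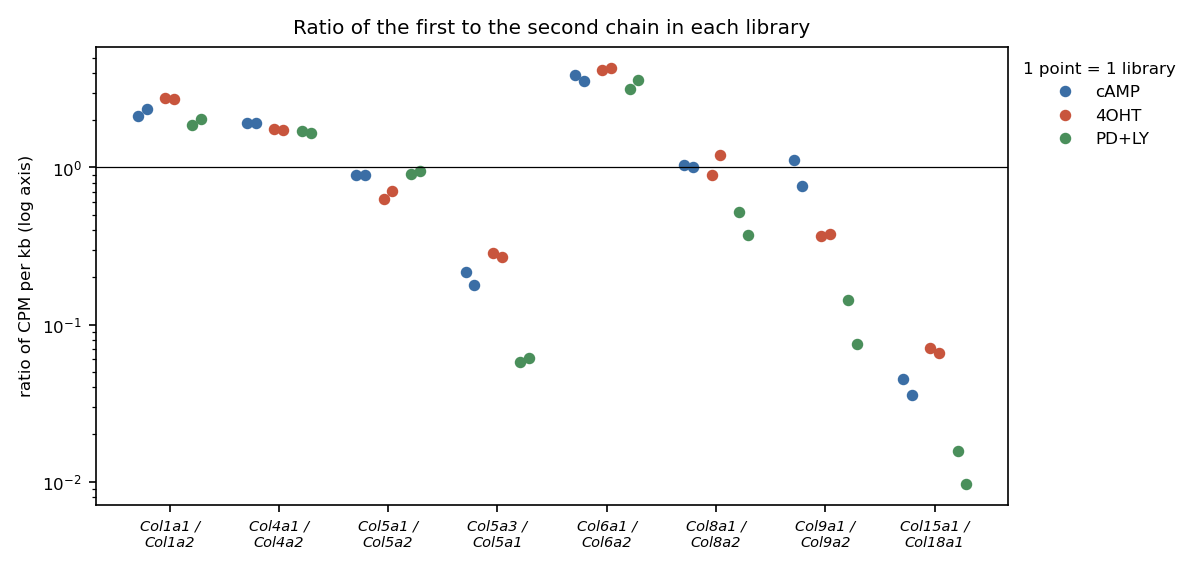
The ratio of CPM per kilobase of exon between chains is drawn on a log axis for 8 pairs, with a point for each library and a line at 1. Where a pair lies against that line depends on the length used for each gene. Col4a1 to Col4a2 stays between 1.66 and 1.93 in all 6 libraries, while Col9a1 to Col9a2 drops from 0.94 in cAMP to 0.109 in PD+LY on average.

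The enzymes and chaperones that make and secrete collagen had medians near 0. Of 27 genes 2 rose in the 4OHT step (median 0.08), and 1 rose and 4 fell in the inhibitor step (0.04). In the whole difference 6 were higher and 3 lower (0.06). For this list and those that follow, 4.04% of all tested genes rose and 4.35% fell in the 4OHT step. In the inhibitor step 10.7% of all genes rose and 12.1% fell, and 12.1% were higher and 13.7% lower in the whole difference. Of the 27 genes 1 passed the 2-fold threshold. This was the galactosyltransferase Colgalt2, with 22 and 22 counts in cAMP, 4 and 14 in 4OHT, and 65 and 52 in PD+LY (log2 FC 2.43 in the inhibitor step, SE 0.49, adjusted p = 0.00425). Serpinh1, the chaperone specific to collagen, had 631 and 763 CPM in cAMP, 728 and 745 in 4OHT, and 768 and 663 in PD+LY, and was not called (0.08 with 4OHT, -0.04 in the inhibitor step). The prolyl hydroxylase subunit P4ha1 fell by 0.73 there (SE 0.11, adjusted p = 0.000854).

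Of 15 tested genes for trimming and cross-linking, 4 rose and 1 fell in the 4OHT step, 5 rose and 4 fell in the inhibitor step, and 7 were higher and 2 lower in the whole difference, with medians of 0.35, 0.36 and 0.49. Lox, lysyl oxidase, had 68.8 and 69.5 CPM in cAMP, 91.8 and 84.1 in 4OHT, and 248 and 133 in PD+LY, where the libraries differed widely from each other. It rose by 1.12 in the inhibitor step (SE 0.21, adjusted p = 0.00294). Its relatives Loxl3 and Loxl4 fell by 1.17 (SE 0.22, adjusted p = 0.00323) and 0.93 (SE 0.21, adjusted p = 0.00812) in the same comparison, and Loxl4 was lower than in cAMP (-1.54, SE 0.20, adjusted p = 0.00022). Adamts2, which removes the amino end of fibrillar procollagens, was 1.36 higher in PD+LY than in cAMP (SE 0.16, adjusted p = 0.000101), and Loxl1 was 1.23 higher (SE 0.17, adjusted p = 0.000322).

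Of 9 tested collagen receptors 1 rose in the 4OHT step, and 1 rose and 1 fell in the inhibitor step. In the whole difference 1 was higher and 1 lower (medians 0.19, -0.10 and -0.03 in the 3 comparisons). Of all tested genes 4.04% rose and 4.35% fell in the 4OHT step. The shares were 10.7% and 12.1% in the inhibitor step and 12.1% and 13.7% in the whole difference. The integrin chain Itga2 had 2.2 and 0.974 CPM in cAMP, 7 and 7.46 in 4OHT, and 1.27 and 0.292 in PD+LY, high in 4OHT alone, and it rose by 2.22 (SE 0.46, adjusted p = 0.0133) and fell by 3.21 (SE 0.50, adjusted p = 0.000937). The receptor kinase Ddr2, which binds fibrillar collagen, had 16.1 and 12.9 CPM, 19.9 and 21.3 CPM, and 39.6 and 31.5 CPM in the same order, and was 1.30 higher in PD+LY than in cAMP (SE 0.16, adjusted p = 0.000149). Its epithelial relative Ddr1 had 80.5 and 83.7 CPM, 64.9 and 71.2 CPM, and 79.5 and 81 CPM, and the fibroblast integrin chain Itga11 had 3.08 to 6.92 CPM over the 6 libraries. Neither was called.

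Of 11 partners of type IV collagen in basement membranes 1 rose and 1 fell in the 4OHT step, 4 rose and 1 fell in the inhibitor step, and 6 were higher and 1 lower in the whole difference, with medians of -0.01, 0.26 and 0.32. The laminin chain Lama5 fell by 1.09 in the inhibitor step (SE 0.11, adjusted p = 4.96e-05). The matricellular Smoc2 had 6.35 and 5.85 CPM in cAMP, 1.73 and 3.45 in 4OHT, and 13 and 11.5 in PD+LY, a rise of 2.21 in the inhibitor step (SE 0.28, adjusted p = 0.000244).

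Of 9 tested genes of collagen turnover 4 rose in the 4OHT step, 2 rose and 3 fell in the inhibitor step, and 3 were higher and 2 lower in the whole difference (medians 0.58, 0.09 and 0.49). The gelatinase Mmp9 had 13.6 and 9.79 CPM in cAMP, 17.3 and 22.2 in 4OHT, and 4.23 and 4.08 in PD+LY, and the collagenase Mmp13 had 2.7 and 1.41 CPM, 3.53 and 3.89 CPM, and 0.56 and 0.583 CPM in the same order. They fell by 2.25 (SE 0.22, adjusted p = 4.53e-05) and 2.69 (SE 0.43, adjusted p = 0.00107) in the inhibitor step. The membrane collagenase Mmp14 and the inhibitor Timp2 were higher in PD+LY than in cAMP by 1.09 (SE 0.13, adjusted p = 0.000127) and 1.23 (SE 0.13, adjusted p = 5.6e-05).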

How the data were processed

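The authors trimmed the reads of TruSeq Stranded libraries with Trimmomatic, mapped them to mm10 (GRCm38) with HISAT2 and counted them with HTSeq, ignoring strand. Versions and annotation are not given in the sources used here. The deposited values are raw counts for 25239 gene symbols in 6 libraries of 14898409 to 20637959 counts, so 1 count is worth 0.0485 to 0.0671 CPM, and limits on low genes cover counting error only.

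From these counts, filterByExpr with a minimum count of 10 and a minimum total of 15 retained 15256 genes, and libraries were scaled by TMM (factors 0.99 to 1.01). edgeR 4.0.16 in R 4.3.3 fitted 1 quasi-likelihood model with 3 groups to all 6 libraries (common biological coefficient of variation 0.105), with Benjamini-Hochberg adjustment over all tested genes. Alternatives were DESeq2 1.42.0, RLE size factors, library totals, other filters, the compared groups alone, the replicate number as a block, and leaving out each library.

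Members called in a comparison are given in full, those never called as ranges. Of the supporting lists, genes past both thresholds are named by size of change, with Serpinh1, Ddr1, Ddr2, Itga2 and Itga11 whatever their values, and P4ha1 and the single marker genes were named after their values were seen. The members and lists were chosen with earlier results of these data known. Gene positions and coding sequences are from GENCODE M21, promoter windows from RefSeq.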

Additional observations from a re-analysis of the deposited data

How the results depend on the processing

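The 25 called members gave 52 calls over the 3 comparisons. Of these 52, DESeq2 made 49 and edgeR on the 2 compared groups alone 50, while RLE size factors, library totals and no filter on low counts each kept all 52, and at least 10 counts in every library kept 48 of the 48 that could be tested. That filter left 3 members at least 2-fold down in PD+LY against cAMP, where 5 were called. A fit without 1 library leaves a group with 1 library, and the share of all genes that lose calls in it was not worked out. Leaving out single libraries ended 24 of the 52 calls in some fit and turned the direction of 0 of them. Over those fits the number of members up in 4OHT against cAMP ranged from 5 to 16 and down from 0 to 2, with 0 to 1 down at least 2-fold. In PD+LY against 4OHT 6 to 13 fell, 2 to 5 rose at least 2-fold and 4 to 7 fell at least 2-fold. In PD+LY against cAMP 4 to 9 were lower, and the median log2 FC of tested members ranged from -0.01 to 0.22. Some values that were not called changed sign when a library was left out. In 4OHT against cAMP these were Col27a1 (-0.113 to 0.357), Col4a2 (-0.157 to 0.077), Col9a3 (-0.237 to 0.194, and 0.004 with library totals), Col6a5 (-0.756 to 0.087) and Col8a2 (-0.012 to 0.249), and in PD+LY against cAMP it was Col5a3 (-0.124 to 0.067). The cause was not tested. Replicate numbers are shared between groups without a stated pairing, and deviations of same-numbered libraries correlated by 0.072, 0.207 and 0.059 across group pairs. With the replicate number as a block all 52 calls were kept and 6 more were made, with 15 members up in 4OHT against cAMP and 16 down in PD+LY against 4OHT.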
